A study of Mus musculus with 2 samples.

Results

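The cytosolic nucleic acid sensors examined here are 8 genes chosen by name: the RIG-I-like receptors Ddx58, Ifih1 and Dhx58, their adaptor Mavs, the Z-nucleic acid sensor Zbp1, the kinase gene Eif2ak2, and the IFI200 genes Ifi204 and Ifi205. All 8 were found among the 16218 genes with a symbol in the deposited table, and all 8 were among the 11662 measured genes, whose mean over both libraries reached 1 CPM (counts scaled to a library's total). Polyadenylated RNA came from bone marrow-derived macrophages of C57BL/6J mice, grown for 5 days with 10% fetal bovine serum and 10% L929 supernatant before a 3 h exposure to lipopolysaccharide (LPS) at 10 ng/ml. The WT library came from Lyz2-Cre cells. The TKO library came from Lyz2-Cre cells with mir-17~92flox/flox that were also mir-106b~25-/- and mir-106a~363-/-. Both genotypes carry Lyz2-Cre, a Cre recombinase expressed in myeloid cells, which acts on the floxed mir-17~92 cluster only where it is expressed. Each genotype had 1 library, the number of animals behind it is unknown here, and both were LPS-treated. "Higher" and "lower" therefore describe these 2 libraries, without a replicate check, and genotype cannot be told apart from other differences between the cultures.

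Cytosolic sensors detect nucleic acid in places or forms that healthy cells mostly lack. RIG-I (encoded by Ddx58) and MDA5 (Ifih1) bind viral RNA and pass the signal through MAVS on the mitochondrial surface to kinases that switch on type I interferon genes. Several of the sensor genes are themselves interferon-stimulated, and macrophages treated with LPS make interferon through Toll-like receptor 4, so these transcripts are usually abundant in such cells. MicroRNAs, the products of the deleted clusters, lower transcripts whose 3' untranslated regions (3' UTRs) pair with their seed, and were not measured by these libraries.

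Total counts were 10764519 for WT and 10836855 for TKO. The labelled cell type was checked against 10 macrophage markers. All 10 were measured, 0 were 1.5-fold apart, and their summed level was 7814 CPM in WT and 8006 CPM in TKO. Of 12 fibroblast and stromal markers 11 were measured, of which 8 were lower in TKO by 1.5-fold or more and 0 higher, and their summed level was 516 CPM in WT and 219 CPM in TKO. Of 8 dendritic cell markers 3 were measured and 1 was higher, Itgax, with 291 counts in WT and 2019 in TKO. The 5 that were not measured, Flt3, Zbtb46, Clec9a, Siglech and Cd209a, had between 0 and 12 counts. Neutrophil markers summed to 5.48 and 4.80 CPM, with 1 of 3 measured lower and 0 higher. Markers of T, NK and B cells summed to 8.83 and 6.64 CPM, with 1 of 2 measured lower and 0 higher. In such bulk samples fewer cells of a type and less RNA per cell cannot be told apart, and the part of these differences in the sensor values was not tested.

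Zbp1 was the sensor that differed most between the libraries, at 1.62-fold higher in TKO (1.51 to 1.72). Dhx58 was 1.245-fold higher (1.17 to 1.32) and Ifi204 1.18-fold higher (1.15 to 1.22). Ddx58, Eif2ak2 and Ifi205 were higher by at most 6.93%, Ifih1 was 1.05-fold lower (1.02 to 1.08), and for Mavs no difference was detectable at this depth. Folds are ratios of CPM. The range in parentheses is a 95% exact Clopper-Pearson interval for the split of a gene's counts between the libraries, and it covers counting error only.

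**Figure D1:**
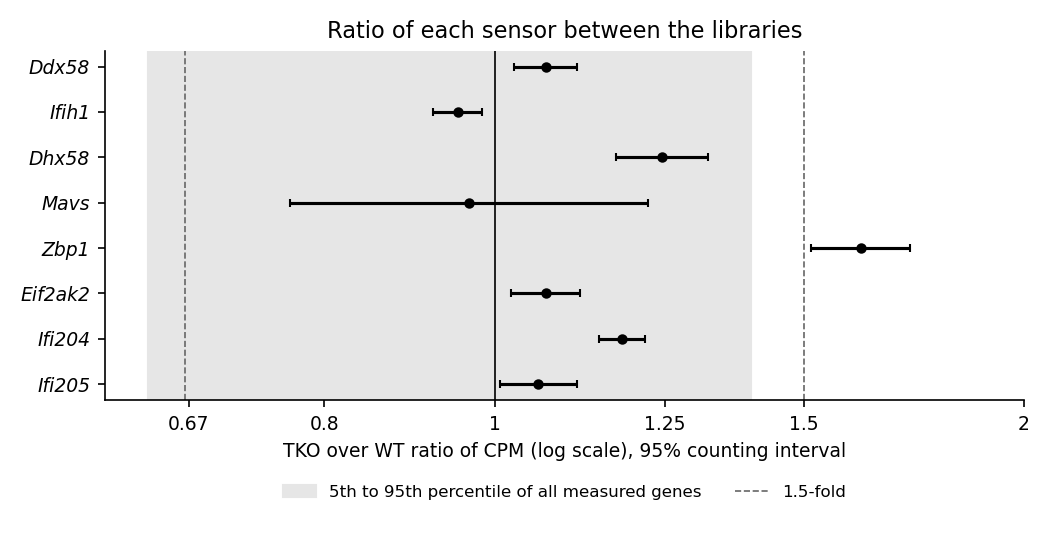
Ratio of CPM in TKO over WT for each of the 8 sensors, on a log axis, with bars for the 95% counting interval and dashed lines at 1.5-fold in either direction. The grey band spans the 5th to 95th percentile of the log2 ratio of all measured genes (-0.66 to 0.48, with 0.5 CPM added). Zbp1 is the 1 sensor beyond the band.

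Counted by a rule of at least 1.5-fold on log2 of (CPM + 0.5) and an interval that excludes equality, 1 of 8 sensors was higher in TKO and 0 were lower. By this rule 2.83% of all measured genes were higher and 5.26% lower, and the count of sensors rests on Zbp1. The median log2 ratio of the 8 sensors was 0.10, beside -0.04 for all measured genes. With no size threshold, 6 sensors were higher by more than counting error, 1 was lower, and 1 had an interval that included equality. This rule calls small differences in abundant genes. Among genes that averaged 100 CPM or more, which include 7 of the 8 sensors, 32.1% were higher in this sense and 31.9% lower, and their median log2 ratio was 0.00. When scaled by edgeR's TMM factors those shares became 41.7% and 24.6%, and by DESeq2's size factors 39.6% and 26.6%. Under each of these scalings 6 sensors were higher and 0 lower, since the interval of Ifih1 then included equality.

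Levels between genes were compared with the authors' FPKM values, which are per length. The sensors fell in 3 ranges. Ifi204 was highest, Mavs was far below the rest, and the other 6 lay between 72.5 and 169 FPKM in WT. In WT the order from the highest was Ifi204, Ifi205, Ifih1, Zbp1, Ddx58, Eif2ak2, Dhx58 and Mavs. There Ifih1 and Zbp1 did not differ beyond counting error, with a ratio of 1.05 (0.994 to 1.11). In TKO, Zbp1 moved to the second place, above Ifi205 by a ratio of 1.07 (1.01 to 1.13), and Dhx58 moved from the seventh place to the fifth. Dhx58 and its neighbour in the TKO order, Ddx58, did not differ beyond counting error, with a ratio of 1.01 (0.966 to 1.07). The remaining neighbours in both orders differed beyond counting error, although the spread between cultures is unknown.

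**Figure D2:**
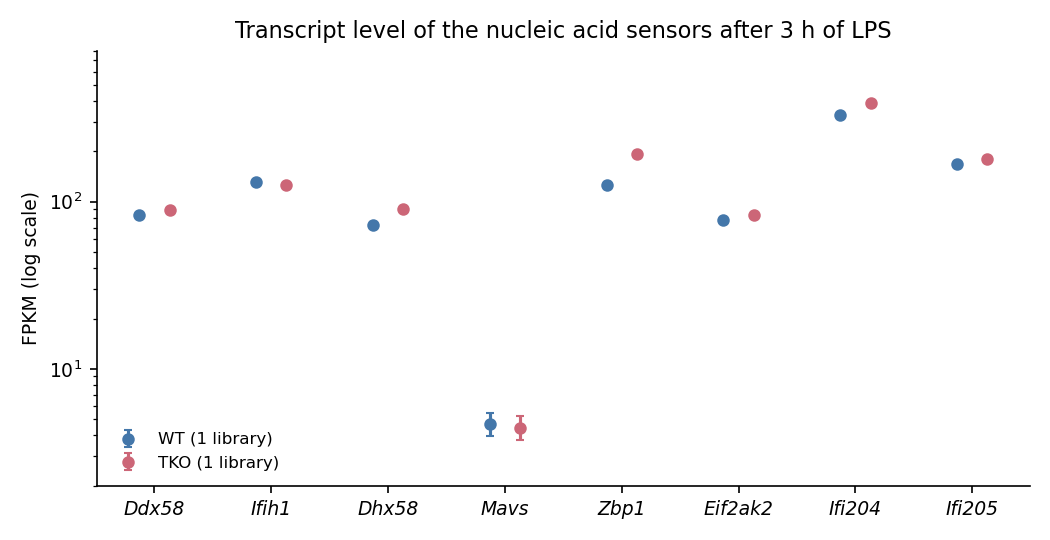
FPKM of each of the 8 sensors in the WT and the TKO library, on a log axis. Points are single libraries and bars are 95% Poisson intervals of the count, too narrow to see beside most points. Ifi204 is highest at 329 FPKM in WT and 389 in TKO, and Mavs lowest at 4.66 and 4.44.

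The RIG-I-like receptors are RNA helicases of the cytosol. RIG-I and MDA5 carry the caspase recruitment domains that engage MAVS, and LGP2, encoded by Dhx58, lacks them and modulates both. Ddx58 (gene 230073, chromosome 4, 40203773 to 40239828, minus strand, GRCm38) had 4466 counts in WT and 4806 in TKO, at 83.2 and 88.9 FPKM. It was 1.07-fold higher (1.03 to 1.11), and 71.6% of measured genes had a lower log2 ratio. Ifih1 (gene 71586, chromosome 2, 62595798 to 62646255, minus strand) had 7899 and 7574 counts, at 132 and 125 FPKM. It was the 1 sensor lower by more than counting error with scaling by total count, and its interval included equality under TMM and DESeq2 scaling. Dhx58 (gene 80861, chromosome 11, 100694884 to 100704271, minus strand) had 1896 and 2377 counts, at 72.5 and 90.3 FPKM. The regulator thus differed more than either signalling receptor. Its FPKM relative to that of Ddx58 was 0.871 in WT and 1.01 in TKO, while the FPKM of Ifih1 relative to that of Ddx58 was 1.58 and 1.41. An annotated antisense gene, Dhx58os, overlaps the span of Dhx58. Overlap of exons was not checked, and the sources used here do not give the strand setting of the counting. Whether reads of the pair mix is therefore unknown. Summed over the 3 receptors, the counts were 14261 and 14757, a ratio of 1.03 (1.00 to 1.05).

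Mavs (gene 228607, chromosome 2, 131234063 to 131248025, plus strand), the adaptor through which both signalling receptors act, was the scarcest of the 8. It had 150 counts in WT and 146 in TKO, and 35.9% of measured genes had a lower mean FPKM. The ratio was 0.967 (0.764 to 1.22), so its counting interval ran from 1.31-fold lower to 1.22-fold higher and included equality. The FPKM of Ifih1 was 28.2 times that of Mavs in both libraries, and that of Ddx58 was 17.8 times that of Mavs in WT and 20.0 times in TKO.

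Zbp1 encodes a sensor of left-handed (Z-form) nucleic acid that engages the kinases RIPK1 and RIPK3 in inflammatory and necroptotic cell death. Zbp1 (gene 58203, chromosome 2, 173206612 to 173218923, minus strand) had 1497 counts in WT and 2434 in TKO, or 139 and 225 CPM. Of all measured genes, 97.5% had a lower log2 ratio than its 0.69. Its lower interval bound of 1.51-fold was itself past 1.5-fold. By FPKM, which was 125 in WT and 192 in TKO, the ratio was smaller at 1.53. These measures part because FPKM divides each library's count by a mean transcript length that was not the same in both. Read back from count and FPKM, that length was 1128 bases in WT and 1188 in TKO. The same reading returned 2427 bases for Dhx58, 2302 for Ifi204 and 1613 for Ifi205 in both libraries. Only Mavs, at 2977 bases in WT and 3022 in TKO, also differed by more than 1 base among the sensors. Such a mean weights transcript forms by their estimated shares, for which these data give no error.

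Eif2ak2 encodes PKR, a kinase activated by double-stranded RNA that phosphorylates the translation factor eIF2α and so lowers protein synthesis. Eif2ak2 (gene 19106, chromosome 17, 78852564 to 78882573, minus strand) had 3686 counts in WT and 3968 in TKO, at 78.2 and 83.6 FPKM. It was 1.07-fold higher (1.02 to 1.12), the same size as the difference of Ddx58. The annotated antisense-strand genes n-R5s29 and Gm26637 overlap its span. Overlap of exons was not checked, so whether their reads mix with its own is unknown.

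Ifi204 and Ifi205 belong to the IFI200 family, proteins that carry a pyrin domain, a DNA-binding HIN domain, or both, and are encoded in a tandem cluster on chromosome 1. Ifi204 (gene 15951, chromosome 1, 173747293 to 173766943, minus strand) encodes p204, a mouse relative of the human DNA sensor IFI16. It had 8170 counts in WT and 9719 in TKO, at 329 and 389 FPKM, and 98.3% of measured genes had a lower mean FPKM. Ifi205 (gene 226695, chromosome 1, 174011998 to 174031810, minus strand) had 2920 and 3113 counts, at 169 and 179 FPKM, and was 1.06-fold higher (1.01 to 1.11). The FPKM of Ifi204 was 1.95 times that of Ifi205 in WT and 2.17 times in TKO. The deposited counts of both genes are fractional, at 8169.67 and 9719.14 for Ifi204, as estimated counts are where a read matches several genes, so the single values are uncertain. The same holds for Ddx58 (4466.18 and 4806.03) and Eif2ak2 (3686.33 and 3967.65).

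The rest of the family was read from the same cluster. The table held 10 other IFI200 genes, of which 9 were measured. None of these 9 was 1.5-fold apart in either direction (0 higher, 0 lower), and their median log2 ratio was 0.13. The highest by mean FPKM were Mnda, with 8705 counts in WT and 8843 in TKO, and AI607873, with 12768 and 12433. The widest difference was that of Pyhin1, chosen after its value was seen, at 3840 and 5413 counts and 1.40-fold higher (1.34 to 1.46). Ifi202b had 2 counts in each library, under the mean of 1 CPM that a measured gene had to reach. Summed over all 12 family genes, which is less open to the division of reads among copies, the counts were 54349 in WT and 58424 in TKO, a ratio of 1.07 (1.06 to 1.08). The difference of Ifi204 was thus larger, beyond counting error, than that of the summed family that includes it.

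**Figure D3:**
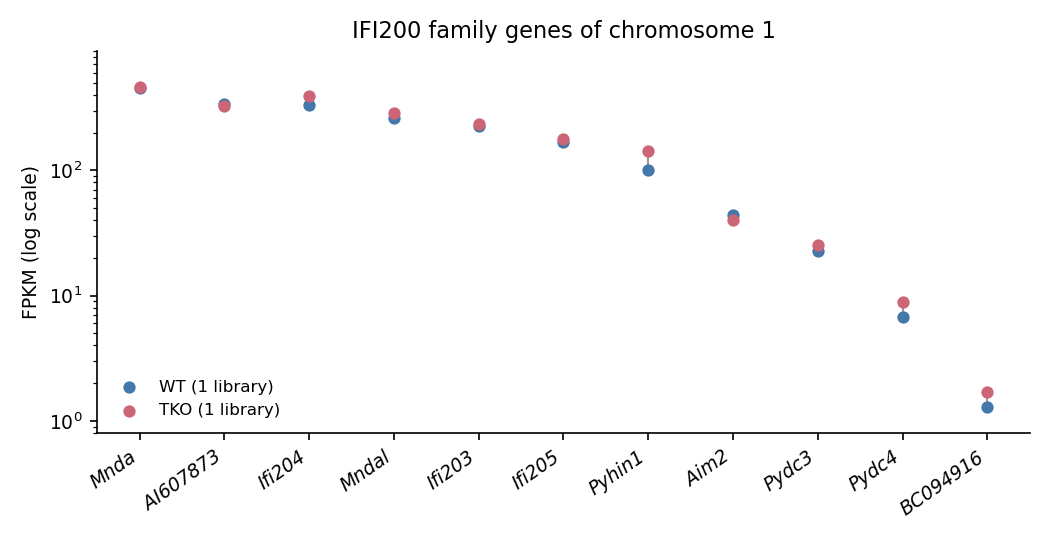
FPKM of 11 measured IFI200 family genes in the WT and TKO libraries, on a log axis, ordered by the WT level. Each pair of points is 1 gene in 2 single libraries. Ifi204 and Pyhin1 show the visible differences among the abundant members, while Mnda and AI607873 nearly coincide.

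Promoter sequences were examined because most of the sensors are known interferon-stimulated genes. Windows from 250 bases before to 50 bases after the annotated start, from RefSeq on GRCm38.p6, were found for 5 of the 8 sensors: Ifih1, Ddx58, Eif2ak2, Mavs and Ifi205. Dhx58, Zbp1 and Ifi204 were not in the table. The core of the interferon-stimulated response element (ISRE), searched as GAAANNGAA on both strands, was present in 4 of these 5 windows and in 8.56% of all 32851 windows of that length. The windows of Ifih1, Eif2ak2 and Ifi205 held 2 matches each, the overlapping pair of Eif2ak2 included, and that of Ddx58 held 1. The window of Mavs held 0. One match per gene is shown, 5′ to 3′ on the gene's strand with the matched letters in capitals, so that the spacing can be compared. A match on the other strand reads as its reverse complement.
Ifih1, chr2:62646206-62646233: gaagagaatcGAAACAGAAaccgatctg
Ddx58, chr4:40239804-40239832: ctgaggcagtTTCGATTTCctatggccag
Eif2ak2, chr17:78882536-78882564: agtccgccggGAAAACGAAacagaagaga
Ifi205, chr1:174031871-174031899: ccaggccaggGAAATTGAAagctatgaac
The Ifih1 match shown lies 33 to 41 bases after the start, that of Ddx58 4 to 12 after, and that of Eif2ak2 19 to 27 after. The Ifi205 match shown lies between -134 and -126. The second matches, not shown, lie between -112 and -104 in Ifih1 and 25 to 33 bases after the start in both Eif2ak2 and Ifi205. The core of the gamma-activated site (GAS), TTCNNNGAA, which reads the same on both strands, was found in 1 of the 5 windows, that of Eif2ak2, and in 8.30% of all windows. The matches are a description of these letters and not of bound sites.

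Sites of the deleted microRNAs were searched for, since the comparison asks how transcripts differ without them. The search used the longest 3' UTR of each sensor in GENCODE M21. RefSeq places the 3' ends of Eif2ak2 and Ifih1 further out, at 78850504 and 62595618, and those added stretches were not searched. A site is the 7-base match to the seed, bases 2 to 8 of the mature microRNA. The 15 microRNA genes of the 3 clusters give 4 main seeds, shown here in capitals in 1 mature sequence for each (RefSeq, GRCm38.p6), to set beside the sites in the sensors.
mmu-miR-17-5p: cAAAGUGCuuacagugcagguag
mmu-miR-18a-5p: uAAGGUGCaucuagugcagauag
mmu-miR-19a-3p: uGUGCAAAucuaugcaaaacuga
mmu-miR-92a-3p: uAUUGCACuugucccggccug
Of the 8 sensors, 3 held a site of any of these seeds, beside 34.3% of 10874 measured genes with an annotated 3' UTR. The 4 sites follow with 10 bases on either side, the match in capitals.
Ifih1, miR-19 site: ctctcataacTTTGCACttcattgtgc
Ifih1, miR-92 site: gcacttcattGTGCAATgcaatgtggc
Dhx58, miR-18 site: ccttgcccaaGCACCTTgtaggttttg
Eif2ak2, miR-17 site: gcttctcaaaGCACTTTggacctttgc
In Ifih1 the sites lie at bases 343 to 349 and 356 to 362 of a 3' UTR of 2111 bases, so close that their flanks overlap. The site of Dhx58, which was 1.245-fold higher in TKO, is at bases 210 to 216 of 273. Of the 1000 measured genes nearest to Dhx58 in 3' UTR length, 6.3% held at least 1 site. The site of Eif2ak2, which was 1.07-fold higher, is at bases 2370 to 2376 of 2575, and 55% of the 1000 genes nearest to it held at least 1. Whether these sites have a part in the ratios was not tested. Zbp1, which differed most, held 0 sites in 605 bases, and of the 1000 measured genes nearest to it in 3' UTR length 17.1% held at least 1. Ifih1 held the most sites, and of the 1000 genes nearest to it in length 45.4% held at least 1. Its small difference was within counting error under both other scalings. Ddx58, Mavs, Ifi204 and Ifi205 held 0.

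Genes that act on or after the sensors were taken from lists chosen by function. Their counts are to be read beside the shares of all measured genes by the same 1.5-fold rule, 2.83% higher and 5.26% lower. Of 19 measured regulators of RIG-I-like receptors, 0 were at least 1.5-fold higher and 1 lower, with a median log2 ratio of -0.14. The lower gene was Zcchc3, which encodes a zinc-finger co-sensor of RNA and DNA, with 26 counts in WT and 9 in TKO at a ratio 2.91-fold lower (1.32 to 7.05). The highest by mean FPKM were the adaptor genes Ywhae, with 5290 and 5043 counts, and Ywhah, with 4121 and 3350 counts. Trim25, a ubiquitin ligase gene of the RIG-I pathway, had 4881 and 3987 counts. Rnf135, from the same list, had 229 and 234 counts, with an interval that included equality. Both were chosen after their values were seen.

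Downstream of MAVS, 18 of 18 signalling genes were measured and 0 were 1.5-fold apart in either direction, with a median log2 ratio of -0.06. The highest by mean FPKM were the interferon regulatory factor genes Irf5, with 5197 counts in WT and 4914 in TKO, and Irf7, with 3186 and 3971. Irf7, which encodes the interferon-inducible factor of this pathway, was 1.24-fold higher (1.18 to 1.30). Its partner Irf3, chosen after its values were seen, had 375 and 309 counts.

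Among 18 measured genes of cytosolic DNA sensing, 0 were at least 1.5-fold higher and 1 lower, with a median log2 ratio of -0.13. The lower gene was Xrcc6, which encodes the Ku70 end-binding protein, at 100 counts in WT against 60 in TKO, or 1.68-fold lower (1.21 to 2.35). The highest by mean FPKM were Lrrfip1 (1753 and 1948 counts) and the inflammasome DNA sensor Aim2 (1211 and 1106 counts). Mb21d1, the gene of the DNA sensor cGAS, had 754 and 527 counts, while Tmem173, which encodes its partner STING, had 333 and 327. Both were chosen after their values were seen.

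**Figure D4:**
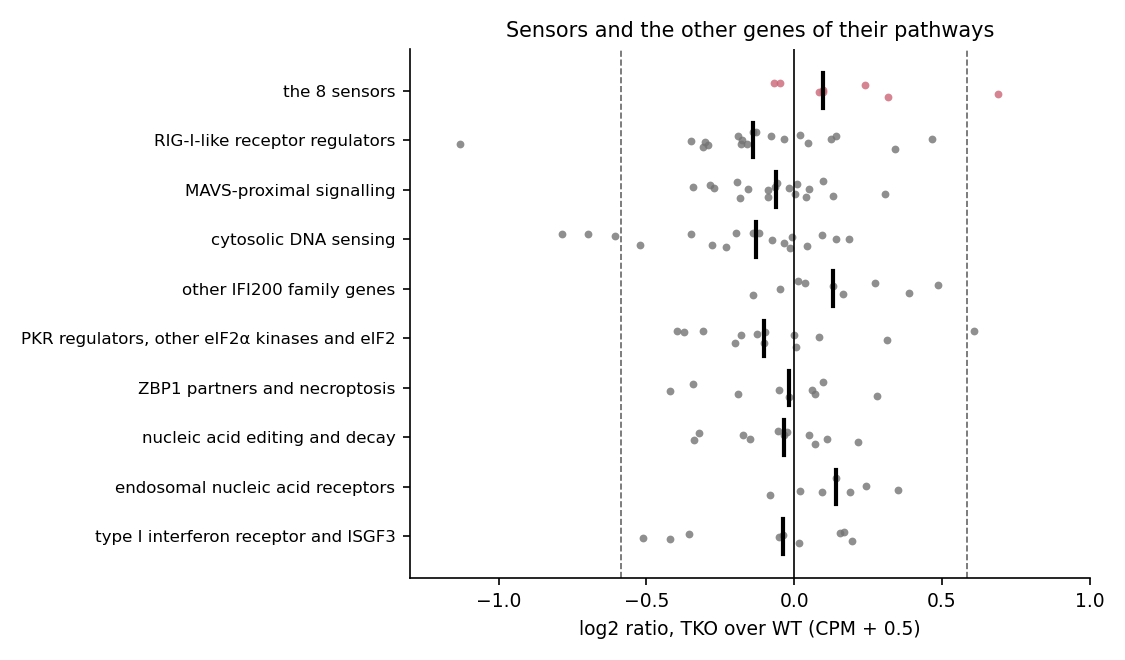
Log2 ratio of TKO over WT (CPM + 0.5) for the 8 sensors and for the measured genes of 9 pathway lists. Each point is 1 gene, black bars are medians, and dashed lines mark 1.5-fold. The sensors' median is 0.10, and those of the pathway lists run from -0.14 to 0.14.

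The genes around PKR were those of its regulators, the other eIF2α kinases, subunits of eIF2 and eIF2B, eIF2α phosphatase subunits and Atf4. Of these 13 genes, 1 was at least 1.5-fold higher and 0 lower, with a median log2 ratio of -0.10. It was Ppp1r15a, which encodes the phosphatase subunit GADD34 that reverses eIF2α phosphorylation, with 1245 counts in WT and 1914 in TKO (1.53-fold higher, 1.42 to 1.64). One of the 2 highest by mean FPKM of both libraries, Atf4, a transcription factor gene translated when eIF2α is phosphorylated, had 1962 and 1808 counts, and the other, Eif2s3x, an eIF2 subunit gene, had 2654 and 2492.

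Of the 9 measured partners of ZBP1 and genes of necroptosis, 0 were 1.5-fold apart and the median log2 ratio was -0.02. Cflar, which encodes an inhibitor of caspase-8, had 12249 and 13201 counts, and Irf1, a transcription factor gene, had 7126 and 6927. The kinase gene Ripk3, through which ZBP1 signals, had 360 and 317 counts, and Mlkl, the executioner of necroptosis, had 810 and 992. Ripk3 and Mlkl were chosen after their values were seen. Of 11 genes that edit or degrade nucleic acid before sensors meet it, 0 were 1.5-fold apart, with a median of -0.03. Trex1, the exonuclease gene whose product clears cytosolic DNA, was with Samhd1 the highest by mean FPKM. It had 3159 and 2515 counts and was 1.26-fold lower, beyond counting error, while Samhd1 had 6946 and 6733 counts.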

How the data were processed

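RNA of 2 libraries was analysed, 1 per genotype. Per the submitters' processing notes, the tools were HISAT2 2.0.4, Bowtie2 2.2.5 and RSEM 1.2.12 and the build mm10. Their roles are not given there. The authors deposited estimated counts, partly fractional (79.2% whole in WT, 79.4% in TKO), rounded here, and FPKM values. The deposited log2 ratio equals the log2 of TKO over WT FPKM. The deposited gene length column is in bases. The 1 of 16219 entries without a symbol held 9.29e-06% of WT and 9.23e-06% of TKO counts and was left out. Positions came from GENCODE M21 (GRCm38). With 1 library per genotype no replicate test was possible. CPM used total counts, and log2 ratios a pseudocount of 0.5. Mean transcript length was read from count over FPKM, using a line through genes of 1 fixed length. Intervals were tested on simulated Poisson counts, the spread that they assume, so that test does not cover spread between cultures.

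The members and lists were chosen with earlier results of these data known. Named genes were all members and, of each pathway list, genes 1.5-fold apart and the 2 highest by mean FPKM. Others are stated as chosen after their values were seen. Marker lists are given by counts and sums. With 2 libraries no likeness of patterns was computed. Alternatives were TMM (edgeR 4.0.16) and median-ratio scaling (DESeq2 1.42.0), unrounded counts, FPKM, pseudocounts and thresholds. The rule without a size threshold was chosen after seeing the data. PCR reads without molecular identifiers are not independent molecules.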

Additional observations from a re-analysis of the deposited data

How the results depend on the processing

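The count of sensors at least 1.5-fold higher stayed at 1 and that of lower ones at 0 under both other scalings, unrounded counts, FPKM, pseudocounts of 0 and 5, a looser fold threshold and an interval bound of 1.5-fold. With a threshold of 2-fold, 0 sensors were higher. The median log2 ratio of the sensors lay between 0.095 and 0.144 under the scalings, FPKM, unrounded counts and pseudocounts. TMM scaling, which raises every log2 ratio by 0.048, moved Ifih1 to -0.02 and Ifi204 to 0.29. Both values lay outside the counting intervals found with scaling by total count. The interval of Ifih1 under TMM included equality, and no sensor changed direction. The share of genes at least 1.5-fold lower was 3.11% at a mean of at least 10 CPM. No paired analysis was possible because each genotype has 1 library, so no replicate could be left out either. Depth limits Mavs, at 150 and 146 counts.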

Other observations

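The endosomal nucleic acid receptors, which meet RNA and DNA inside vesicles, were read beside the cytosolic ones. Of 7 measured genes 0 were 1.5-fold apart, and the median log2 ratio was 0.14. Unc93b1, which encodes their transport protein, had 4598 counts in WT and 4688 in TKO, and Tlr7, an RNA receptor gene, had 3162 and 3401. Among 9 measured genes of the type I interferon receptor and its transcription factor complex, 0 were 1.5-fold apart, with a median of -0.04. The list also held the interferon gene Ifnb1, which was not measured, with 6 counts in WT and 9 in TKO. The receptor chain gene Ifnar2 had 3191 and 2253 counts (1.43-fold lower, 1.35 to 1.51). Its ratio of TKO over WT was 0.701 by CPM but 0.768 by FPKM. Its mean transcript length read back as 2031 bases in WT and 1857 in TKO. Usp18, which encodes a feedback inhibitor of the receptor, had 2748 and 2799 counts. Ifnar1, chosen after its values were seen, had 6423 and 4835 counts.

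The nearest measured neighbours of Zbp1 on chromosome 2 were Pmepa1, 5499 bases away with 369 counts in WT and 328 in TKO, and Rbm38, 171878 bases away with 70 and 50. Both had intervals that included equality. Zfp385c, 2418 bases from Dhx58, had 480 and 604 counts and was higher by more than counting error (ratio interval 1.11 to 1.41), while Kat2a, 475 bases away on the other side, had 257 and 243. These genes were chosen by position.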
